A study of Mus musculus with 25 samples.

Results

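Astrocytes remove synapses and dying material through engulfment receptors and build synapses through secreted and membrane-bound proteins. 10 genes of these functions were followed here in sorted mouse brain cells. Mertk, Axl and Megf10 encode engulfment receptors, and Gas6 encodes a bridging ligand. Sparc, Sparcl1 and Thbs4 encode secreted matrix proteins, and Gpc4, Gpc5 and Gpc6 encode glypicans. The genes were chosen by symbol, with earlier results of these data known. Each symbol matched a single Entrez ID, and the genes are 10 of the 36528 gene IDs in the count files.

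Transgenic animals carried hMAPT-P301S, a human tau transgene with a mutation that causes frontotemporal dementia in people, and the controls were non-transgenic littermates (non-Tg). All animals were 6 months old. Brain cells had been sorted as Gfap+ astrocytes and NeuN+ neurons, which gave 5 P301S astrocyte, 6 non-Tg astrocyte, 6 P301S neuron and 8 non-Tg neuron RNA-seq libraries. Sorting yielded 2 to 5 ng of RNA for astrocytes and 200 to 300 ng for neurons, per the labels. The labels give neither the promoter of the transgene nor the number of animals in a library, and they do not tie neuron and astrocyte libraries to shared animals. The p-values therefore measure the spread between these samples, which may be partly technical.

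MERTK and AXL are receptor tyrosine kinases of the TAM family, which TYRO3 completes. They recognise phosphatidylserine on dying cells and synapses through the bridging proteins GAS6 and protein S (Pros1), while MEGF10 is a scavenger-type receptor, and MERTK and MEGF10 are known for synapse removal by astrocytes. SPARCL1 (hevin) and thrombospondins promote the formation of excitatory synapses, SPARC counteracts hevin, and glypicans 4 and 6 recruit AMPA-type glutamate receptors. Mertk and Axl are also expressed by microglia.

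Each library held between 1245964 and 4453555 counts, so 3 counts corresponded to between 0.674 and 2.41 CPM, which is counts scaled to 1000000 per library. Levels below are CPM scaled by the TMM method, which are compared only within a gene. The 12 astrocyte markers summed to 15421 to 30070 CPM in P301S astrocytes and 17806 to 28083 CPM in non-Tg astrocytes, against 492.9 to 796 CPM in P301S neurons and 356 to 754 CPM in non-Tg neurons. Genes detected per 1000000 counts numbered 14004 ± 1641 in P301S and 16691 ± 1061 in non-Tg astrocytes (SD, n = 5 and 6; exact permutation test, 2-sided, p = 0.0130, adjusted over 4 tests 0.0519). The share of mitochondrially encoded counts was 7.72% ± 2.86 in P301S and 4.04% ± 1.52 in non-Tg astrocytes (SD; exact permutation test, 2-sided, p = 0.0303, adjusted 0.0606). Adjusted over the 4 tests none passed, the adjusted neuron values being 0.386 and 0.125 (exact permutation test). With genes detected as a covariate, 0 of 12130 genes differed between genotypes in astrocytes (edgeR, adjusted p under 0.05). Genes detected ran lower in P301S astrocytes, so that fit cannot tell RNA quality from genotype. The part of RNA quality in the results was not tested further. In bulk libraries fewer expressing cells and less RNA per cell cannot be told apart.

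Promoter windows on GRCm38.p6 were found in RefSeq for 7 of the 10 genes, from 250 bases before to 50 bases after a start site. For Axl and Gpc5 that site lies inside the annotated gene rather than at its first base. Those of Thbs4, Sparc and Gpc4 are shown because these genes had the smallest p-values in the genotype comparisons. CpG dinucleotides are in capitals.
Thbs4: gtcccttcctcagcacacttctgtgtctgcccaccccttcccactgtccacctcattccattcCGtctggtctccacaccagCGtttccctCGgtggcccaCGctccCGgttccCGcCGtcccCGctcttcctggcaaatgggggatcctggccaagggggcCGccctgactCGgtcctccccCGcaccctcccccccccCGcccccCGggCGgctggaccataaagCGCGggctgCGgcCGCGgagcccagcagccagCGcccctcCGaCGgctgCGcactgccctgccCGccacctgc
Sparc: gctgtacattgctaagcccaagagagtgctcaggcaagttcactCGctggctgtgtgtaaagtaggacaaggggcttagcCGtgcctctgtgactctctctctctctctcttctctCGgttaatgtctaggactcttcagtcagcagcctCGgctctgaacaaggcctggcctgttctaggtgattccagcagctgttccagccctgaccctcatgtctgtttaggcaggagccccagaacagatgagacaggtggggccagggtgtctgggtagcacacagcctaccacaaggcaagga
Gpc4: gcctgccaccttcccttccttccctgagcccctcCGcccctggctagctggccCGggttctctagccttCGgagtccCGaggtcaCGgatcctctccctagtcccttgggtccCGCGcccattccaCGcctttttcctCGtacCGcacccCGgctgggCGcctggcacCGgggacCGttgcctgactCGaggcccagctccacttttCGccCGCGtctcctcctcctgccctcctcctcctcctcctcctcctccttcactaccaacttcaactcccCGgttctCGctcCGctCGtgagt
The Thbs4 window (chr13:92794769-92795068, minus strand) held 24 CpG, and 20.0% of all 32851 promoter windows held as many or more. The Gpc4 window (chrX:52164874-52165173, minus strand) held 22, a number reached by 23.1% of windows. The Sparc window (chr11:55420031-55420330, minus strand) held 4, and 38.0% of windows held as few or fewer, around a median of 7. A CpG was present in 94.6% of all windows. The windows of Mertk, Axl, Gas6 and Gpc5 held 14, 6, 17 and 17. Motifs were searched first, on both strands. The nuclear factor I motif TTGGCA occurs in 14.1% of all windows, the STAT motif TTCNNNGAA in 8.30%, the AP-1 motif TGANTCA in 7.81% and the TATA box TATAAA in 13.6%. Among the 7 genes, a single match was found, a TATAAA in Gpc5. CpG were counted after that search, and neither count says anything about which factors bind there. Megf10, Sparcl1 and Gpc6 have no entry in that table.

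Per gene length, Sparcl1 was the most abundant of the 10 genes in every group. On the authors' size-factor-adjusted RPKM scale it averaged 106 ± 31.9 in P301S astrocytes (SD, n = 5) and 105 ± 24.6 in non-Tg astrocytes (n = 6), against 7.19 ± 1.59 in P301S neurons (n = 6) and 6.41 ± 1.49 in non-Tg neurons (n = 8). Mertk followed in astrocytes with an RPKM of 24.5 ± 11.4 in P301S and 25.1 ± 11.2 in non-Tg libraries, and the ranges of Sparcl1 and Mertk did not overlap in either genotype. In P301S astrocytes the order continued with Sparc at an RPKM of 13.1, Thbs4 at 9.54, Gpc5 at 9.27, Axl at 5.78, Megf10 at 2.48, Gas6 at 1.76, Gpc6 at 1.34 and Gpc4 at 0.574. Each of these neighbours overlapped the next in range. In non-Tg astrocytes Gpc5 (RPKM 10.8 ± 1.19) came next and did not overlap Mertk, followed by Sparc at 7.38, Axl at 4.49, Thbs4 at 3.94, Megf10 at 3.20, Gpc6 at 2.44, Gas6 at 2.28 and Gpc4 at 0.913, each overlapping its next neighbour. Gpc4 was lowest in both astrocyte groups but in neurons it came after Sparcl1 and Mertk in P301S, at an RPKM of 0.749 ± 0.160, and directly after Sparcl1 in non-Tg, at 1.54 ± 0.577. Below Sparcl1, neighbouring ranges overlapped in both neuron groups.

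**Figure D1:**
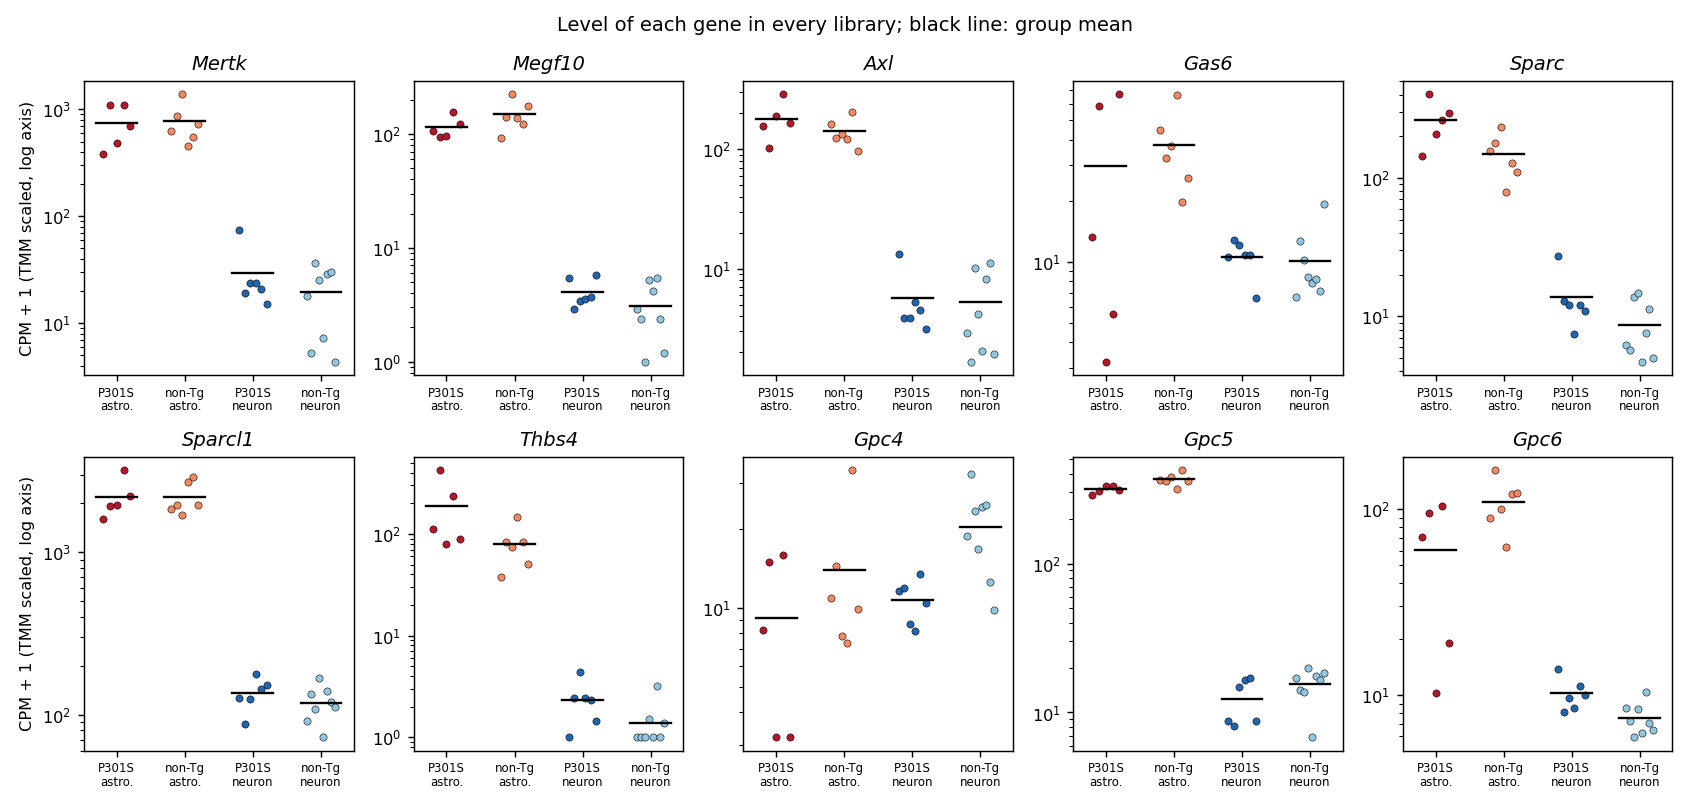
TMM-scaled CPM plus 1 (log axis) of the 10 genes in each of the 25 libraries, with P301S left of non-Tg and astrocytes left of neurons; each point is a library and the black line is the group mean. Thbs4, Megf10, Mertk, Axl, Gpc5, Sparc and Sparcl1 separate the cell types, whereas Gpc4 does not, and Gas6, Gpc4 and Gpc6 spread widely in P301S astrocytes.

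In both genotypes 9 of the 10 genes were higher in astrocytes than in neurons, and Gpc4 did not differ by the test. Megf10, Axl and Thbs4 had too few counts for the fit of neurons alone and passed the count filter here through the astrocyte libraries. Their calls as higher in astrocytes were thus largely set by that filter. Among all 14197 genes tested, 29.0% were called astrocyte-higher in P301S and 25.1% in non-Tg (edgeR quasi-likelihood test, 1 fit of 25 libraries, Benjamini-Hochberg adjusted p under 0.05 over all genes). The median log2 difference of the 10 genes was 4.55 in P301S and 4.49 in non-Tg, beside 0.21 and 0.11 over all genes, which RLE size factors shifted to 0.08 and -0.08. All astrocyte libraries exceeded all neuron libraries for 7 genes in P301S, where 12.7% of all genes did so, and for 9 genes in non-Tg, where 15.4% did so. P301S astrocytes overlapped P301S neurons in Gas6, Gpc4 and Gpc6.

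Among the engulfment receptors, Mertk was at 378, 1098, 485, 1099 and 690 CPM in the 5 P301S astrocyte libraries, against 14.2 to 73.2 CPM (median 21.3) in 6 P301S neuron libraries. In non-Tg libraries it ran from 453 to 1377 CPM (median 679) in astrocytes, against 3.39 to 36.0 CPM (median 20.6) in neurons. The log2 difference of Mertk was 4.73 ± 0.51 (SE; edgeR adjusted p = 2.19e-09) in P301S and 5.43 ± 0.46 (adjusted p = 1.01e-11) in non-Tg. No astrocyte library came near a neuron library, the closest pair in P301S being 378 and 73.2 CPM.

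Axl was at 157, 102, 188, 288 and 165 CPM in P301S astrocytes, against 2.15 to 12.3 CPM (median 3.22) in P301S neurons. In non-Tg libraries it ran from 96.1 to 207 CPM (median 129) in astrocytes, against 0.673 to 10.2 CPM (median 2.52) in neurons. Its log2 difference was 5.29 ± 0.53 (SE) in P301S and 5.2 ± 0.47 in non-Tg. Megf10 was at 105, 93.7, 95.8, 156 and 121 CPM in P301S astrocytes, against 1.89 to 4.73 CPM (median 2.59) in P301S neurons. In non-Tg libraries Megf10 ran from 90.5 to 222 CPM (median 139) in astrocytes, against 0 to 4.41 CPM (median 1.62) in neurons, where 3 of 8 libraries held at most 3 counts. The log2 difference of Megf10 was 5.19 ± 0.45 (SE) in P301S and 6.22 ± 0.42 in non-Tg, with no overlap between the cell types. No p-value is given for Axl and Megf10, whose calls the count filter largely set.

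Gas6, the bridging ligand of the TAM receptors, differed less between the cell types. It was at 12.3, 57.6, 2.21, 4.49 and 65.8 CPM in P301S astrocytes, against 5.59 to 11.8 CPM (median 9.75) in P301S neurons, so that 3 astrocyte libraries lay above and 2 below all the neuron libraries. In non-Tg libraries it ran from 18.8 to 65.3 CPM (median 33.9) in astrocytes, against 5.66 to 18.3 CPM (median 7.27) in neurons. The log2 difference was 1.58 ± 0.55 (SE; edgeR adjusted p = 0.0165) in P301S and 1.99 ± 0.49 (adjusted p = 0.00103) in non-Tg. The P301S call ended without P301S astrocyte 2 (log2 1.15, adjusted p = 0.0819) or 5 (1.02, adjusted p = 0.118), in the fit of P301S libraries alone (1.62, adjusted p = 0.0818), in limma voom (0.79, adjusted p = 0.266) and with microglia and vascular marker covariates (0.98, adjusted p = 0.662). Those covariates also ended the non-Tg call (log2 1.55, adjusted p = 0.426). The vascular markers summed to 72.6 to 211 CPM in P301S astrocytes and 13.9 to 26.8 CPM in P301S neurons. In non-Tg libraries they summed to 109 to 208 CPM in astrocytes and 19.7 to 32.4 CPM in neurons. These sums separate the cell types, so a fit with them cannot tell marker cells from cell type. The same holds for the cell type comparisons below.

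Gas6 lies on the minus strand and overlaps Tmem255b on the plus strand, with 34 exonic bases in common (1.33% of Gas6 exons in GENCODE M21). Whether the authors counted by strand is not given in the sources used here, so reads of the pair cannot be told apart where they overlap. In the 5 P301S astrocyte libraries, in the order given above for Gas6, Tmem255b was at 6.40, 39.6, 0.737, 2.99 and 64.7 CPM. Both genes were high in libraries 2 and 5 and low in libraries 3 and 4.

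Sparc and Sparcl1 were both higher in astrocytes. Sparc, a collagen-binding matrix protein, was at 143, 401, 206, 263 and 295 CPM in P301S astrocytes, against 6.48 to 26.3 CPM (median 11.1) in P301S neurons. In non-Tg libraries Sparc ran from 78.4 to 233 CPM (median 141) in astrocytes, against 3.71 to 13.7 CPM (median 5.90) in neurons. Its log2 difference was 4.37 ± 0.39 (SE; edgeR adjusted p = 3.68e-11) in P301S and 4.33 ± 0.34 (adjusted p = 2.50e-12) in non-Tg. Sparcl1 was at 1611, 1912, 1951, 3201 and 2209 CPM in P301S astrocytes, against 86.6 to 178 CPM (median 134) in P301S neurons. In non-Tg libraries Sparcl1 ran from 1682 to 2922 CPM (median 1953) in astrocytes, against 71.5 to 168 CPM (median 114) in neurons, and its log2 differences were 4.02 ± 0.23 (SE) in P301S and 4.22 ± 0.20 in non-Tg. The cell types overlapped in neither gene.

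Thbs4, a thrombospondin, showed the widest gap of the 10 genes. It was at 111, 423, 77.8, 234 and 87.3 CPM in P301S astrocytes, against 0 to 3.36 CPM (median 1.38) in P301S neurons. In non-Tg libraries it ran from 36.6 to 145 CPM (median 77.2) in astrocytes, against 0 to 2.20 CPM in neurons, where 5 of 8 libraries had no count and 7 of 8 at most 3 counts. The fitted log2 differences, 7.07 ± 0.62 (SE) in P301S and 7.60 ± 0.62 in non-Tg, rest on these few neuron counts.

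The 3 glypicans differed from one another. Gpc5 was at 289, 308, 330, 332 and 309 CPM in P301S astrocytes, against 7.10 to 16.0 CPM (median 10.9) in P301S neurons. In non-Tg libraries Gpc5 ran from 314 to 423 CPM (median 362) in astrocytes, against 5.82 to 19.0 CPM (median 15.8) in neurons, and its log2 differences were 4.78 ± 0.26 (SE) in P301S and 4.65 ± 0.23 in non-Tg. Its astrocyte libraries were close together in each genotype.

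Gpc6 was at 69.9, 95, 9.22, 103 and 18.1 CPM in P301S astrocytes, against 7.10 to 12.9 CPM (median 8.84) in P301S neurons, so that P301S astrocyte 3 fell within the neuron range. In non-Tg libraries it ran from 61.9 to 162 CPM (median 109) in astrocytes, against 4.94 to 9.36 CPM (median 6.2) in neurons. The log2 difference of Gpc6 was 2.67 ± 0.42 (SE; edgeR adjusted p = 2.70e-06) in P301S and 4.05 ± 0.39 (adjusted p = 1.47e-10) in non-Tg.

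Gpc4 was at 7.24, 14, 2.21, 15.0 and 2.22 CPM in P301S astrocytes, against 7.2 to 12.5 CPM (median 10.0) in P301S neurons. In non-Tg libraries it ran from 6.33 to 32.6 CPM (median 9.45) in astrocytes, against 8.85 to 31.6 CPM (median 20.2) in neurons. Its log2 difference was -0.27 (95% interval -1.3 to 0.75; edgeR adjusted p = 0.668) in P301S and -0.56 (95% interval -1.45 to 0.33; adjusted p = 0.317) in non-Tg. In non-Tg, Gpc4 was called lower in astrocytes by limma voom (log2 -0.89, adjusted p = 0.0242) and without non-Tg astrocyte 5 (-1.08, adjusted p = 0.0469), which had the 32.6 CPM.

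**Figure D2:**
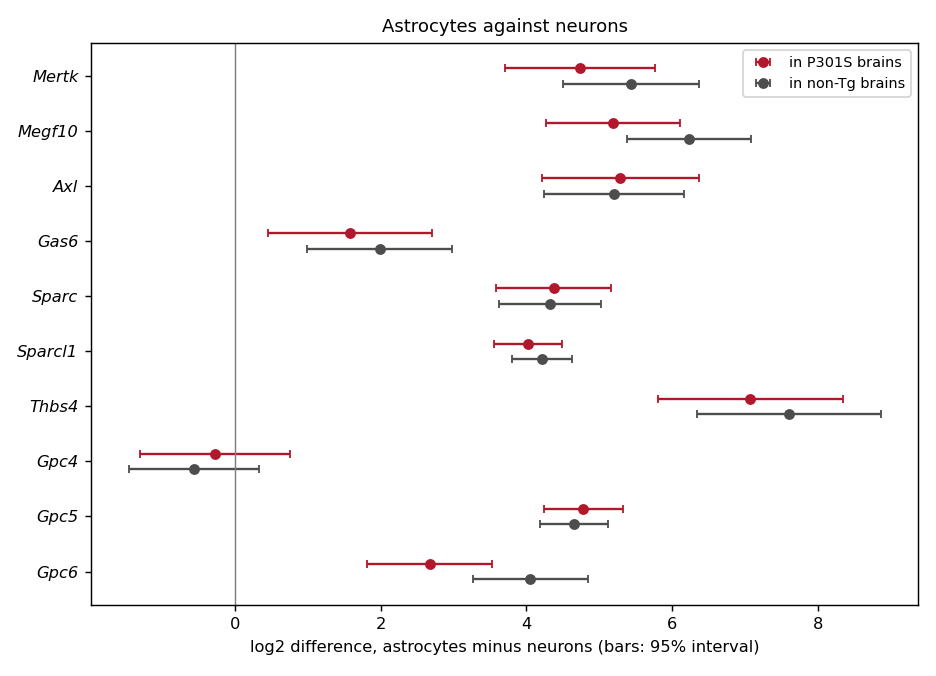
Log2 difference of each gene, astrocytes minus neurons, from 1 edgeR fit of 25 libraries, with P301S in red above non-Tg in grey; points are estimates and bars 95% intervals. The intervals of 9 genes lie above 0 in both genotypes, and those of Gpc4 include 0. Megf10, Axl and Thbs4 passed the count filter through the astrocyte libraries, which largely set their side of 0.

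The neuron level of each gene was set against its astrocyte level, beside the same share for the 12 astrocyte markers. For the markers, the mean CPM in neuron libraries was 0.847% to 12.6% of that in astrocyte libraries in P301S, with a median of 1.66%, and 0.495% to 11.8% in non-Tg, with a median of 1.08%. Slc4a4, a bicarbonate transporter, alone set the top, and the other 11 markers reached 3.12% in P301S and 2.66% in non-Tg. Thbs4 stood at 0.713% in P301S and 0.498% in non-Tg. Megf10, Mertk, Axl, Gpc5, Sparc and Sparcl1 lay between 2.59% and 6.17% in P301S and between 1.40% and 5.39% in non-Tg. Of these, Mertk, Gpc5, Sparc and Sparcl1 in P301S and Axl, Gpc5, Sparc and Sparcl1 in non-Tg lay above 11 of the 12 markers. Gas6 lay above all 12 at 33.6% in P301S and 24.6% in non-Tg, as did Gpc4 at 120% in P301S and 149% in non-Tg. Gpc6 lay above all 12 in P301S at 15.6% and above 11 in non-Tg at 6.03%. How much of the neuron signal of the other genes came from astrocyte RNA was not tested.

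**Figure D3:**
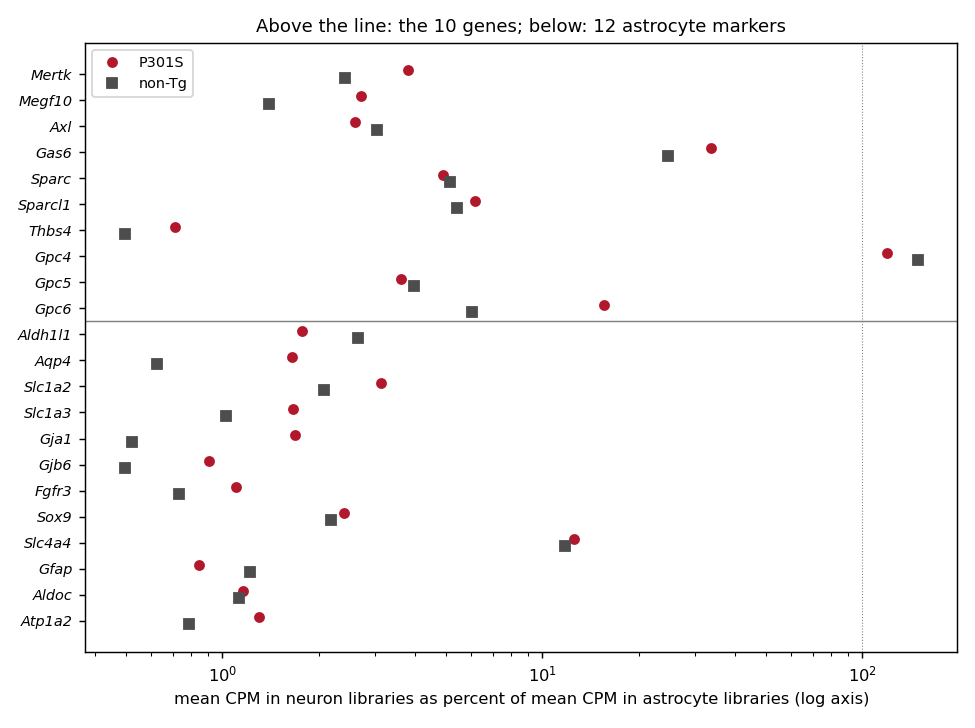
Mean CPM in neuron libraries as a percentage of mean CPM in astrocyte libraries (log axis), for the 10 genes above the line and 12 astrocyte markers below it, with P301S as red circles and non-Tg as grey squares. Gas6 and Gpc4 exceed the highest marker, Slc4a4, in both genotypes.

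P301S astrocytes were then compared with non-Tg astrocytes. None of the 10 genes was called, where 66 of 12130 genes tested (0.544%) were (edgeR, adjusted p under 0.05), and DESeq2 and limma voom with sample quality weights called none of the 10 either. At an unadjusted p under 0.05 stood 2 of the 10, Thbs4 and Sparc, beside 13.4% of all genes. All 10 overlapped between the genotypes in CPM, and 2.14% of all genes did not. The median log2 change of the 10 genes was -0.14, beside 0.13 over all genes (-0.15 in voom).

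Thbs4 averaged 187 ± 146 CPM in P301S astrocytes (SD, n = 5) and 78.0 ± 37.5 CPM in non-Tg astrocytes (n = 6). The 423 and 234 CPM of P301S astrocytes 2 and 4 lay above all non-Tg values, which ended at 145 CPM, and the other 3 lay among them. Its log2 change was 1.25 ± 0.43 (SE; edgeR adjusted p = 0.190), and 0.71 without P301S astrocyte 2 (adjusted p = 0.388). The unfiltered fit called it (log2 1.22, adjusted p = 0.0319), and over all alternatives its adjusted p ran from 0.0319 to 0.995. Sparc averaged 262 ± 97.2 CPM in P301S and 147 ± 54.9 CPM in non-Tg astrocytes, with a log2 change of 0.81 ± 0.31 (SE; edgeR adjusted p = 0.245). P301S astrocytes 2, 4 and 5 lay above all non-Tg libraries in Sparc.

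Marker levels of these groups were as follows. Gfap, the antigen of the sort, averaged 943 CPM in P301S and 200.0 CPM in non-Tg astrocytes. The 11 microglia and myeloid markers summed to 111 to 251 CPM in P301S astrocytes and 59.0 to 128 CPM in non-Tg astrocytes. The 9 oligodendrocyte markers summed to 387 to 1282 CPM in P301S and 196 to 530 CPM in non-Tg astrocytes, and the 6 oligodendrocyte precursor markers to 293 to 671 CPM in P301S and 228 to 425 CPM in non-Tg astrocytes. The 13 endothelial and mural markers summed to 72.6 to 211 CPM in P301S and 109 to 208 CPM in non-Tg astrocytes, with Cldn5 at 0 in all P301S astrocytes and at 0 to 2 counts in non-Tg ones. The highest microglia, oligodendrocyte, precursor and vascular sums of the astrocyte libraries were all in P301S astrocyte 3. That library was lowest of its group in Thbs4 at 77.8 CPM. It was also lowest in Gas6 at 2.21, Gpc4 at 2.21 and Gpc6 at 9.22 CPM, and in none of the other genes. With microglia and vascular marker levels as covariates the log2 change of Thbs4 was 0.078 and that of Sparc 0.42. In that fit 0 of 12130 genes were called. The microglia sums ran higher in P301S, with overlap, so the fit cannot tell marker cells from genotype. The part of these cells in the values was not tested further.

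Of the engulfment genes, Mertk averaged 750 ± 337 CPM in P301S astrocytes (SD, n = 5) and 770 ± 331 CPM in non-Tg astrocytes (n = 6), a log2 change of -0.05 (95% interval -0.68 to 0.58). Axl averaged 180 ± 68.0 CPM in P301S and 141 ± 38.8 CPM in non-Tg astrocytes, a log2 change of 0.34 (95% interval -0.28 to 0.96). Megf10 averaged 115 ± 25.8 CPM in P301S and 148 ± 45.7 CPM in non-Tg astrocytes, a log2 change of -0.38 (95% interval -1.0 to 0.23). Gas6 averaged 28.5 ± 30.7 CPM in P301S and 36.7 ± 16.5 CPM in non-Tg astrocytes, a log2 change of -0.38 with a wide 95% interval of -1.77 to 1.01.

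Sparcl1 was close to equal, with 2177 ± 611 CPM in P301S and 2172 ± 506 CPM in non-Tg astrocytes, a log2 change of -0.01 (95% interval -0.44 to 0.43) that was 0.03 with RLE size factors. Gpc5 averaged 314 ± 18 CPM in P301S and 366 ± 35.4 CPM in non-Tg astrocytes, a log2 change of -0.24 (95% interval -0.67 to 0.19). 3 of 5 P301S libraries lay below all non-Tg libraries in Gpc5, yet the test did not pass (edgeR adjusted p = 0.646). Gpc6 averaged 59.1 ± 43.4 CPM in P301S and 109 ± 33.9 CPM in non-Tg astrocytes, a log2 change of -0.89 ± 0.49 (SE; edgeR adjusted p = 0.440), with P301S astrocytes 3 and 5 lowest. The same libraries were lowest in Gpc4, at 2.21 and 2.22 CPM. Gpc4 averaged 8.13 ± 6.17 CPM in P301S and 13 ± 9.94 CPM in non-Tg astrocytes, a log2 change of -0.70 (95% interval -2.26 to 0.86).

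**Figure D4:**
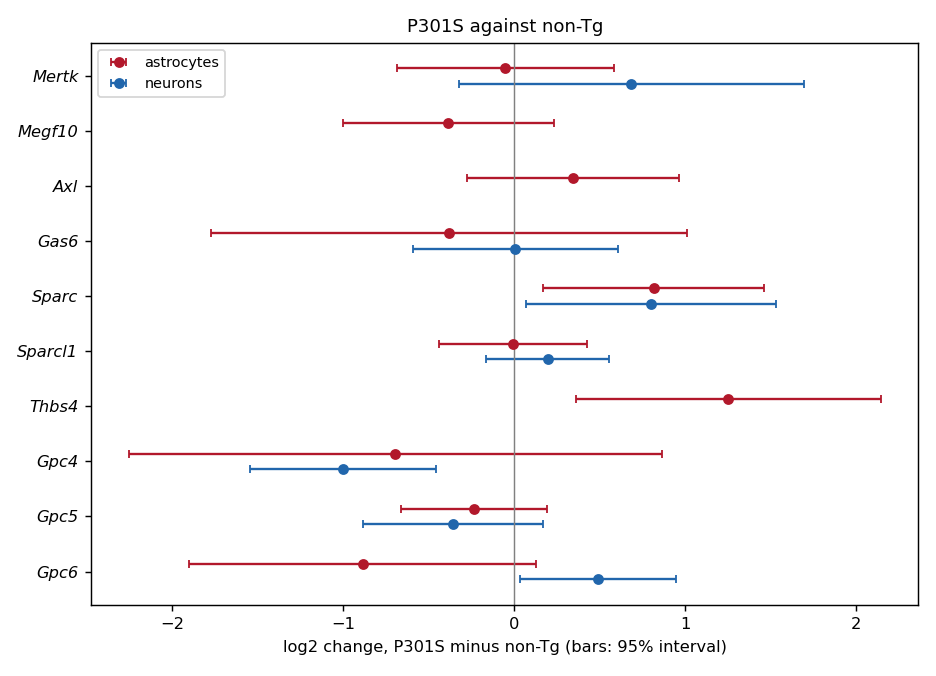
Log2 change of each gene, P301S minus non-Tg, in astrocytes (red) and neurons (blue); points are edgeR estimates and bars unadjusted 95% intervals. The intervals of Thbs4 and Sparc in astrocytes and of Sparc, Gpc4 and Gpc6 in neurons leave out 0, and no adjusted p is under 0.05; Megf10, Axl and Thbs4 had too few neuron counts to be tested.

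In neurons 7 of the 10 genes had enough counts to be tested, and none was called between P301S and non-Tg. edgeR called 1 of 10951 genes (0.00913%), and DESeq2 and limma voom, which called 49 and 41 genes, called none of the 7. At an unadjusted p under 0.05 stood Gpc4, Sparc and Gpc6, 3 of 7, beside 7.73% of all genes. All 10 genes overlapped between the genotypes in CPM, beside 0.210% of genes that did not.

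Gpc4 was at 10.6, 10.9, 7.69, 7.2, 12.5 and 9.46 CPM in P301S neurons, against 17.9, 31.6, 22.6, 15.8, 23.3, 23.7, 11.6 and 8.85 CPM in non-Tg neurons. 6 of 8 non-Tg libraries lay above every P301S library, and non-Tg neurons 7 and 8 lay among them. The log2 change was -1.0 ± 0.26 (SE; edgeR adjusted p = 0.211). Adjusted p was 0.0606 in DESeq2 and 0.0579 in voom. The call was made without non-Tg neuron 8 (log2 -1.13, adjusted p = 0.0417) and without non-Tg neurons 5 and 8 (-1.10, adjusted p = 0.0353). Non-Tg neurons 5 and 8 were left out together as libraries of another identifier range, but the sample numbers run unbroken over all libraries. The labels give no batch, and whether these libraries form one was not tested. Over all alternatives the adjusted p ran from 0.0353 to 1.0. The summed neuron markers overlapped, at 1589 to 2072 CPM in P301S and 1554 to 2158 CPM in non-Tg neurons.

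Sparc was at 26.3, 11.8, 11.1, 6.48, 11.1 and 9.89 CPM in P301S neurons, against 5.19, 4.71, 12.7, 13.7, 3.71, 6.61, 10.2 and 3.95 CPM in non-Tg neurons, a log2 change of 0.80 ± 0.35 (SE; edgeR adjusted p = 0.628). Mertk was at 73.2, 18, 22.6, 23.0, 20.0 and 14.2 CPM in P301S neurons, against 17.0, 4.26, 36.0, 24.2, 6.35, 28.1, 29.3 and 3.39 CPM in non-Tg neurons, a log2 change of 0.69 ± 0.48 (SE; edgeR adjusted p = 0.781). P301S neuron 1 was highest in Mertk, Sparc and Axl, at 12.3 CPM of Axl against at most 10.2 CPM in the non-Tg neurons. Without it, the log2 change was 0.14 for Mertk (adjusted p = 0.950) and 0.46 for Sparc (adjusted p = 0.760).

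That library had the highest mitochondrial share of the neuron libraries, 2.43%. It also had the highest sum of microglia and myeloid markers, 406 CPM, beside 83.4 to 136 CPM in the other P301S neurons and 30.5 to 182 CPM in non-Tg neurons. Among non-Tg neurons, libraries 3 and 7 had the highest marker sums, 182 and 174 CPM, and the highest Mertk levels, 36.0 and 29.3 CPM. Libraries 8 and 2 had the lowest sums, 30.5 and 38.6 CPM, and the lowest Mertk levels, 3.39 and 4.26 CPM. Axl was also highest in libraries 3 and 7, at 9.17 and 10.2 CPM, and lowest in libraries 8 and 2, at 0.941 and 0.673 CPM. Depth followed the same order. Libraries 3 and 7 had the fewest counts of the non-Tg neurons, 1245964 and 1337868, and libraries 8 and 2 the most, 4453555 and 3566909. P301S neuron 1 had the fewest of the P301S neurons, 1544959. Of the defining microglia markers, C1qa had 0 to 4 counts in P301S neurons and 0 to 2 in non-Tg neurons, while Cx3cr1 was at 11.6 to 86.6 CPM in P301S and 2.92 to 47.3 CPM in non-Tg neurons. The parts of microglial RNA and of depth in the Mertk, Axl and Sparc values of neuron libraries were not tested.

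**Figure D5:**
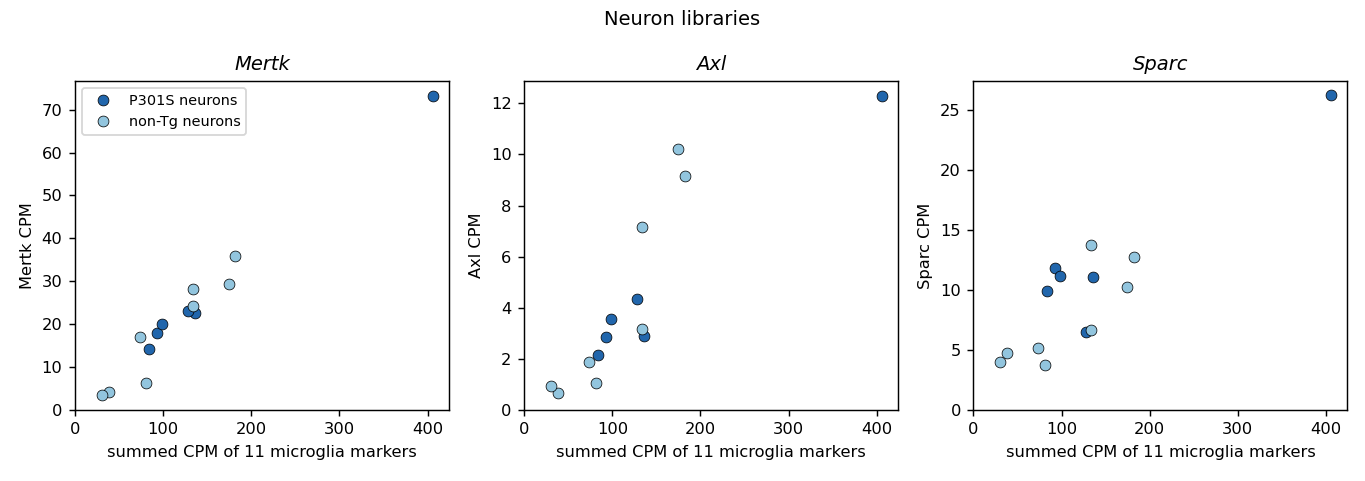
CPM of Mertk, Axl and Sparc in the 14 neuron libraries against the summed CPM of 11 microglia and myeloid markers, with P301S in dark blue and non-Tg in light blue. P301S neuron 1, at a marker sum of 406 CPM, is the highest point in all 3 panels.

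Gpc6 was at 12.9, 7.10, 8.65, 7.56, 10.2 and 9.03 CPM in P301S neurons, against 4.94 to 9.36 CPM (median 6.2) in non-Tg neurons, a log2 change of 0.49 ± 0.22 (SE; edgeR adjusted p = 0.631). All 6 P301S libraries exceeded the non-Tg mean of 6.55 CPM. Sparcl1 averaged 134 ± 30.6 CPM in P301S and 117 ± 29.7 CPM in non-Tg neurons (log2 0.19, 95% interval -0.16 to 0.55). Gpc5 averaged 11.3 ± 4.22 CPM in P301S and 14.6 ± 4.09 CPM in non-Tg neurons (log2 -0.36, 95% interval -0.89 to 0.17). Gas6 averaged 9.58 ± 2.16 CPM in P301S and 9.04 ± 4.19 CPM in non-Tg neurons (log2 0.01, 95% interval -0.59 to 0.61). Megf10, Axl and Thbs4 were under the filter and averaged 3.11, 4.67 and 1.33 CPM in P301S neurons, against 2.07, 4.28 and 0.388 CPM in non-Tg neurons.

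The genotype effect in astrocytes minus that in neurons was called for none of the 10 genes in edgeR, DESeq2 or voom, where edgeR called 56 of 14197 genes (0.394%). Gpc6 alone stood at an unadjusted p under 0.05, beside 14.8% of all genes. Its effect was lower in astrocytes by a log2 difference of -1.38 ± 0.55 (SE; edgeR adjusted p = 0.224), the genotype change being -0.89 in astrocytes and 0.49 in neurons. For Megf10 the difference was -1.03 (95% interval -2.23 to 0.16) and for Mertk -0.70 (95% interval -1.96 to 0.55). The Megf10 value rests on few neuron counts, 4 to 11 per library in P301S and 0 to 8 in non-Tg. For Sparc it was 0.05 (95% interval -1.04 to 1.13).

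Other genes of these pathways were taken from 7 lists holding 77 genes besides the 10. Between genotypes edgeR called none of 61 tested in astrocytes and none of 49 in neurons, beside 0.544% and 0.00913% of all genes. At an unadjusted p under 0.05 stood 7 in astrocytes (11.5%, beside 13.4% of all genes) and 8 in neurons (16.3%, beside 7.73%). DESeq2 called 4 of 58 and voom 1 of 61 in astrocytes, where they called 441 and 124 of 12130 genes. Neither called any in neurons. Between cell types in P301S, 28 of 64 were called higher and 21 lower in astrocytes than in neurons, and in non-Tg 26 were called higher and 16 lower. Over all genes tested, 23.2% were called lower in P301S and 21.8% in non-Tg. Tyro3, the remaining TAM receptor, averaged 3.92 CPM in P301S astrocytes and 13 CPM in P301S neurons (log2 -1.76, edgeR adjusted p = 0.00726), against 7.39 and 7.96 CPM in non-Tg astrocytes and non-Tg neurons (log2 -0.11, adjusted p = 0.865). Pros1, which encodes protein S, was higher in astrocytes than neurons by 2.38 in P301S and 3.0 in non-Tg on the log2 scale (edgeR adjusted p = 0.00169 and 4.38e-05). With microglia and vascular marker covariates the Pros1 calls ended in both genotypes (2.16 in P301S and 2.73 in non-Tg), as did the Tyro3 call in P301S (-1.05). The Tyro3 call also ended in voom (-1.94) and with a genes detected covariate (-1.54), which ended the P301S call of Pros1 too (3.21).

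In the engulfment list 12 of 20 tested genes were called higher and 3 lower in astrocytes in P301S, and 11 higher and 1 lower in non-Tg. Over all genes tested, 29.0% were called higher and 23.2% lower in P301S, and 25.1% higher and 21.8% lower in non-Tg. Mfge8, another phosphatidylserine bridge, averaged 211 ± 70.6 CPM in P301S astrocytes and 3.79 ± 3.28 CPM in P301S neurons, and 229 ± 71.7 CPM in non-Tg astrocytes and 2.30 ± 1.51 CPM in non-Tg neurons. Dock1, a Rac activator of the engulfment machinery, differed by 6.10 in P301S and 5.93 in non-Tg on the log2 scale. Abca1, a lipid transporter, differed by 3.86 in P301S and 3.32 in non-Tg. Itgav, an integrin subunit, differed by 2.47 in non-Tg, and Lrp1, a scavenger receptor, by 2.40 in P301S (1.25, edgeR adjusted p = 0.296, with microglia and vascular marker covariates).

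In the SPARC family list 2 of 6 further genes were called higher in astrocytes and 4 lower, in each genotype. All genes tested stood at 29.0% higher and 23.2% lower in P301S, and at 25.1% and 21.8% in non-Tg. Smoc1 was higher by 3.93 in P301S and 3.04 in non-Tg on the log2 scale, and Fstl1 by 2.01 in non-Tg. Spock2 and Spock3, which encode testicans, were lower in astrocytes, at log2 differences of -2.38 and -4.19 in P301S and -2.03 and -3.99 in non-Tg. Smoc2 was lower in P301S astrocytes than P301S neurons (log2 -5.36). The calls of Smoc1 (4.01 in P301S and 3.10 in non-Tg) and Spock3 (-4.17 and -3.98) ended with microglia and vascular marker covariates, and that of Spock3 in P301S also with a genes detected covariate (-2.43). Among thrombospondins and their receptors, Thbs2 was higher in astrocytes by 3.75 in P301S and 2.80 in non-Tg, and Thbs3 by 2.54 in P301S. With microglia and vascular marker covariates these calls ended and the log2 differences turned to -0.21 and -0.22 for Thbs2 in P301S and non-Tg, and to -0.71 for Thbs3. Because the vascular sums separate the cell types, that fit cannot tell marker cells from cell type. Cacna2d1, the α2δ-1 thrombospondin receptor, averaged 8.16 ± 6.38 CPM in P301S astrocytes and 253 ± 41.6 CPM in P301S neurons, and 14.3 ± 8.10 CPM in non-Tg astrocytes and 336 ± 73.3 CPM in non-Tg neurons. Cacna2d3, a related subunit, was lower in astrocytes (log2 -3.57 in P301S and -3.36 in non-Tg).

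Of 7 further glypican and heparan sulfate genes tested, 2 were called higher and 1 lower in P301S astrocytes than P301S neurons, and 1 higher in non-Tg. The shares of all genes, also for the lists below, were 29.0% higher and 23.2% lower in P301S, and 25.1% and 21.8% in non-Tg. Gpc2 was higher in astrocytes by 3.95 in P301S and 4.69 in non-Tg on the log2 scale. Ndst1, a heparan sulfate sulfotransferase, averaged 56.0 ± 53.5 CPM in P301S astrocytes and 17.9 ± 3.40 CPM in P301S neurons (log2 1.66), and the call ended without P301S astrocyte 2 (0.90, edgeR adjusted p = 0.0855). Gpc1 was lower in P301S astrocytes (log2 -2.94), a call that ended with the sex (-2.01), genes detected (-2.35) and marker (-5.71) covariates. Partners of glypicans and hevin at synapses were called lower in astrocytes in 7 of 12 genes in each genotype. A further 2 in P301S and 3 in non-Tg were called higher. Gria1, an AMPA receptor subunit, differed by -2.45 in P301S and -3.70 in non-Tg on the log2 scale, and Lrrtm4, a glypican receptor, by -6.18 and -5.39. Nptxr differed by -2.82 in non-Tg. Ptprf was higher in astrocytes by 2.53 in P301S on the log2 scale, and at -0.29, not called, with microglia and vascular marker covariates. Other synapse-acting factors were called higher in astrocytes in 7 of 12 genes in each genotype, among them the proteoglycans Bcan and Ncan and the matrix protein Tnc. In P301S 3 of the 12 were called lower, and in non-Tg 2. Tnr, a tenascin, was lower in astrocytes (log2 -1.65 in P301S and -1.96 in non-Tg). With microglia and vascular marker covariates the Tnr calls ended (-0.37 in P301S and -0.73 in non-Tg), as did that of Tnc in P301S (4.09).

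For each member the genes with the most similar pattern over the 25 libraries were found by the root mean square distance of centred log2 values, among 11341 genes. Sparcl1 lay closest to Ptprz1 (distance 0.28) and Trp53bp2 (0.34), Gpc5 to Appl2 (0.34) and Prex2 (0.38), and Gas6 to Tmem255b (0.46) and Ctsf (0.54). Gpc4 lay closest to Marchf6 (0.46) and Slc36a4 (0.51), Mertk to Cst3 (0.50) and Axl (0.60), and Axl to Otx1 (0.54) and Cst3 (0.54). Megf10 lay closest to Slc1a2 (0.56) and Phka1 (0.57), Gpc6 to Jam2 (0.57) and Luzp2 (0.58), Sparc to Notch1 (0.59) and Tns1 (0.61), and Thbs4 to Clu (0.61) and Mlc1 (0.62).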

How the data were processed

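RNA was sequenced from sorted astrocytes and neurons. Each deposited file gives, per the file headers, a count of reads uniquely aligned to each gene model (Entrez ID) and the authors' size-factor-adjusted RPKM. The RPKM equals the count times 1 factor per library and 1 per gene. GSNAP and GRCm38 are named in the submitters' processing notes; their versions, gene models and strand use were not given in the sources used here. IDs were matched to RefSeq symbols (5479 without a match, 3.30% of counts, kept in every test).

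Counts were tested with edgeR 4.0.16 (R 4.3.3), quasi-likelihood F test, TMM scaling, filterByExpr and a robust fit. Genotype was fitted within each cell type; cell types and the difference of genotype effects were fitted in all 25 libraries. Calls were made under an adjusted p of 0.05, with the Benjamini-Hochberg method over every gene tested. DESeq2 1.42.0, limma 3.58.1 voom with sample quality weights (called voom throughout; voom without weights was not run), other scalings, filters and covariates and leaving out each library were tried. Scripts were tested on simulated data. The marker and pathway lists, the 10 genes and the rule were chosen with earlier results of these data known. The rule names the 10 genes, Tyro3 and Pros1, up to 4 called genes by smallest p per list and comparison, and the 2 nearest patterns per gene. A called gene of these lists is not reported here. Total counts ran from 1245964 to 4453555 per library; the floor of 3 counts covers counting error only. Promoters came from RefSeq (GRCm38.p6).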

Additional observations from a re-analysis of the deposited data

Results flagged for a closer look

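Among the 10 genes, 40 sets of libraries, 1 per gene and group, were searched for a library standing apart from the rest of its group. 6 had one. The rule flags about 1 in 20 sets by chance where sets are independent and values normally distributed. These sets share libraries and some lie near the floor, so the 2 shares cannot be compared. P301S neuron 1 stood apart in Mertk (73.2 CPM, the next library at 23.0), in Axl (12.3 CPM, the next at 4.32) and in Sparc (26.3 CPM, the next at 11.8). Its microglia and myeloid marker sum of 406 CPM was also the highest of the neuron libraries. P301S neuron 6 was low in Gas6 (5.59 CPM, the next at 9.50). Non-Tg neuron 6 was high in Thbs4 (2.20 CPM, the next at 0.527), which rests on 4 counts. Non-Tg astrocyte 5 was high in Gpc4 (32.6 CPM, the next at 13.5). Groups larger than 10 or smaller than 4 did not occur.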

How the results depend on the processing

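No paired analysis was possible because the labels give no replicate numbers. Genes called between genotypes in astrocytes numbered 66, and 441 in DESeq2, 124 in voom with sample quality weights (the only voom run), 561 without a filter, 1682 in 1 fit of all libraries, 15 with a sex marker covariate and 0 with genes detected or marker covariates (27 to 136 without each library). Members called there went to 1 without a filter and were 0 without each library. In neurons the count was 1, and 49 in DESeq2, 41 in voom, 17 without a filter, 10 with a filter at 1 CPM, 7 with genes detected, 0 with markers and 38 without non-Tg neurons 5 and 8 (0 to 23 without each library). Members called there were 1 without those libraries, and 0 to 1 without each library. Astrocytes against neurons gave 2154 genes with markers, 3445 with genes detected and 4925 alone in P301S (6840 to 7781 and 8 to 9 members without each library), and 2263 with markers in non-Tg (6168 to 6485 and 9 to 10 members). The difference of genotype effects gave 425 in DESeq2, 10 in voom and 12 without non-Tg neurons 5 and 8 (9 to 522, with 0 members, without each library). On the log2 scale these values changed sign and none was called. In astrocytes, Axl was -0.097 with sex and -0.12 with genes detected, Gas6 0.17 and 0.39, Gpc4 0.049 with sex, Pros1 -0.79 in voom, and Sparcl1 0.029 with RLE and in DESeq2, 0.011 with the authors' factors, 0.0037 in all libraries and 0.062 with markers. Gas6 in neurons was -0.0043 without a filter, -0.012 with the authors' factors and -0.039 with genes detected. Between P301S cell types, markers gave Gpc4 1.52, Thbs2 -0.21, Thbs3 -0.71 and Ptprf -0.29, and sex gave Gpc4 0.0070. Between non-Tg cell types, markers gave Gpc4 1.29, Thbs2 -0.22 and Tyro3 0.56, and Tyro3 was 0.29 in voom, 0.083 with sex and 0.10 without non-Tg neurons 5 and 8. For the difference of effects, Axl was -0.43 with sex, -0.58 with genes detected and -0.064 with markers, Gas6 0.67, Gpc4 -0.42 and Bdnf -1.26 with genes detected, and Sparc -0.088 in voom. Without each library, ranges were -0.22 to 0.20 for Mertk, -0.19 to 0.095 for Sparcl1 and -0.67 to 0.43 for Pros1 in astrocytes, -0.071 to 0.28 for Gas6 in neurons, and -0.26 to 0.61 for Axl, -0.16 to 0.38 for Sparc and -0.045 to 0.83 for Gpc4 in the difference of effects. The causes were not tested.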

Other observations

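The 7 listed genes besides the 10 that stood at an unadjusted p under 0.05 between genotypes in astrocytes are given here as values, chosen after those values were seen. They were 11.5% of the 61 tested, beside 13.4% of all genes. edgeR called none of them, and 5 had positive and 2 negative log2 changes. Lrp1, a scavenger receptor, averaged 728 ± 220 CPM in P301S astrocytes (SD, n = 5) and 383 ± 107 CPM in non-Tg astrocytes (n = 6), a log2 change of 0.91 ± 0.25 (SE; edgeR adjusted p = 0.0964, and 0.0254 to 0.994 over 21 alternatives, 4 of them under 0.05). Abca1 averaged 420 ± 62.5 CPM in P301S and 231 ± 40.7 CPM in non-Tg astrocytes, a log2 change of 0.85 ± 0.22 (edgeR adjusted p = 0.0836, and 0.0102 to 0.994 over 21 alternatives, 2 of them under 0.05). Elmo2 averaged 83.4 ± 17.5 CPM in P301S and 38.1 ± 11 CPM in non-Tg astrocytes (log2 1.11, edgeR adjusted p = 0.170, and 0.00680 to 0.994 over 21 alternatives, 2 of them under 0.05). Ndst1 averaged 56.0 ± 53.5 CPM in P301S and 17.7 ± 6.60 CPM in non-Tg astrocytes (log2 1.65, edgeR adjusted p = 0.192, and 0.0213 to 0.995 over 21 alternatives, 1 of them under 0.05). Cd47 averaged 204 ± 68.1 CPM in P301S and 322 ± 52.2 CPM in non-Tg astrocytes (log2 -0.67, edgeR adjusted p = 0.246, and 0.0585 to 0.994 over 21 alternatives). Megf11 averaged 7.35 ± 5.09 CPM in P301S and 24.9 ± 8.93 CPM in non-Tg astrocytes (log2 -1.76, edgeR adjusted p = 0.309, and 0.0173 to 0.994 over 21 alternatives, 1 of them under 0.05). Gria1 averaged 101 ± 33.3 CPM in P301S and 43.1 ± 10.9 CPM in non-Tg astrocytes, against 553 ± 75.5 CPM in P301S and 563 ± 168 CPM in non-Tg neurons. Its log2 change in astrocytes was 1.21 (edgeR adjusted p = 0.125, and 0.00165 to 0.994 over 21 alternatives, 2 of them under 0.05). Its genotype effect was higher in astrocytes by 1.25 ± 0.30 on the log2 scale (edgeR adjusted p = 0.0514, and 0.00860 to 0.535 over 35 alternatives, 12 of them under 0.05).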
